A study of Cyprinus carpio with 12 samples.

Results

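Small GTPase and regulator genes were chosen by symbol from the RefSeq gene table of the common carp (Cyprinus carpio) assembly ASM1834038v1, as protein-coding genes placed on a chromosome whose symbol begins with the usual stem of a Rab, Arf, Ras or Rap protein or a related small GTPase, a G protein alpha subunit, an RGS protein or one of their GAPs and GEFs. The rule gave 158 genes of 41870, and no methylation value entered it. Of the placed protein-coding genes 77.0% carry a locus number in place of a name and could not be chosen, so that many second copies of this allotetraploid genome are outside the list. There were 58 members on the A chromosomes and 100 on the B chromosomes. By symbol alone, rab5if and rgs7bpb stand with the Rab and RGS groups, although they encode an interacting factor and a binding protein.

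Small GTPases are proteins that switch between a GDP-bound and a GTP-bound state, and they control vesicle traffic (Rab and Arf proteins), the actin cytoskeleton and growth and adhesion signalling (Ras and Rap proteins). Guanine nucleotide exchange factors (GEFs) turn the switch on, GTPase-activating proteins (GAPs) turn it off, and effectors bind the active form. The alpha subunits of heterotrimeric G proteins are larger GTPases that work by the same cycle behind cell surface receptors, and RGS proteins are their GAPs. In sperm of animals such proteins are known for work in the flagellum and motility, and in early embryos for cell division and cell movement.

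CpG methylation was measured by whole-genome bisulphite sequencing, in which unmethylated cytosines are read as T, in 12 libraries. The groups were sperm stored in vitro for 14 days after stripping, fresh sperm (day 0), mid-blastula embryos obtained with the stored sperm and mid-blastula embryos obtained with the fresh sperm, with 3 libraries each. Per the study's methods, the sperm DNA came from 3 males, fresh and stored sperm from the same male were compared, embryos of a sample were pooled and all eggs came from a single female. The methods mention multiple hormone injections and male stripping, but not whether storage was begun at the stripping that gave the fresh sample. They also do not date each fertilisation. Storage therefore cannot be told apart from the date of stripping or of fertilisation.

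The deposited data are lists of differentially methylated regions, 1 for sperm and 1 for embryos, with 1 methylation level per group and region. The sperm list held 41022 regions and the embryo list 39021, of which 37879 and 35962 lay on the 50 chromosomes. The paper reports fewer regions for both sperm and embryos, so the lists are not its published set, and the reason was not resolved here. Every region had at least 5 CpG sites and a difference of at least 10 percentage points between the groups. Values per library and read depth were not used here because the lists carry neither, so no level below has an error, no difference could be set against the spread between libraries, and no test was made. A region is called higher or lower as its level with stored sperm stood to that with fresh sperm, and it was assigned to a gene when it touched the gene body or the 1 kb on either side (flank). Positions are those of the lists.

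The number of small GTPase and regulator genes with a listed region was close to that set by gene length in both lists. In sperm 56 of 158 members held a region (35.4%), where 28.3% of all placed protein-coding genes did, and where 57.4 members would be expected if each had the share of other genes in its length class (20 classes). In embryos 58 members held one (36.7%), with a background of 26.9% and 54.6 expected at like length. The members were longer than other genes, with a median of 13.1 kb against 8.55 kb, and the share with a region climbed with length. Of the 25 members of 50 kb or longer, 22 held a sperm region and 20 an embryo region (88% and 80%, against 85.2% and 82.7% of other genes). Of the 25 shorter than 5 kb 4 did in each list (16%, against 9.23% of other genes in sperm and 8.86% in embryos). From 5 to 20 kb the share of members was 16.9% in sperm and 18.2% in embryos, against 22.8% and 20.9%. Regions stood at 27.8 per Mb of member gene and flank in sperm and 21.9 in embryos, against 24.3 and 22.5 per Mb of other protein-coding genes.

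**Figure D1:**
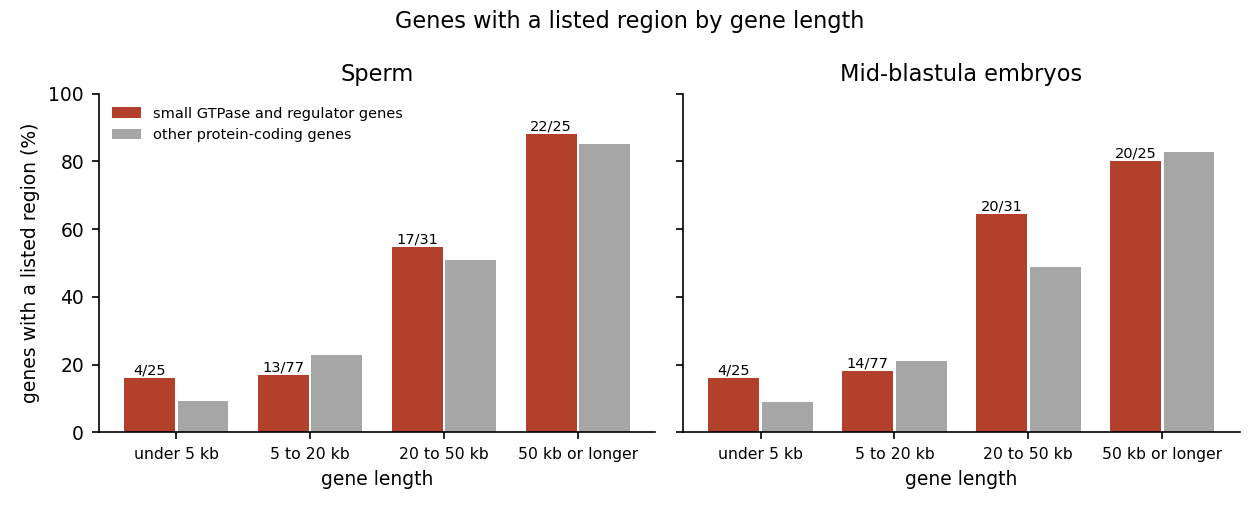
Share of genes with at least 1 listed region (vertical axis, %) by gene length (horizontal axis), for small GTPase and regulator genes (red) and other protein-coding genes (grey), with the number of members above each red bar. In both panels the share of other genes climbed from class to class, while that of members climbed mainly from 20 kb on. It reached 22 of 25 members of 50 kb or longer in sperm and 20 of 25 in embryos.

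Both lists together reached 80 members, of which 34 held a region in each, 22 in sperm alone and 24 in embryos alone, while 78 held none. A region in both lists was found for 14.5% of all protein-coding genes, and 33.1 members were expected to do so at like length. The counts in sperm alone, in embryos alone and in neither follow from this overlap and the counts of each list. As those were close to the numbers set by gene length, they are not read as a trait of the members. Among the members with none were the Ras exchange factor gene sos1 and the early endosome gene rab5aa, named here after their values were seen. A gene that is not listed had no window past the authors' filter, which does not show that its methylation was alike in the groups.

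Higher regions prevailed in stored sperm, as they did in the rest of the list. The 56 genes held 127 regions, 81 higher and 46 lower, a higher share of 63.8% (95% Wilson interval 55.1 to 71.6, which treats regions as independent) against 64.0% of the 21001 regions of other protein-coding genes. Of the genes, 45 held a higher region (21.3% of all protein-coding genes; 44.2 members expected at like length) and 29 a lower one (background 13.2%; 28.1 expected). Regions were higher throughout in 27 genes, lower throughout in 11, and in 18 they ran both ways. Of the 56 genes 31 held a lone region, which could not run both ways. The matching shares of all protein-coding genes are not given here, so these gene counts are not read as a trait of the members. The majority turned round in the 9 member regions with at least 10 CpG sites, of which 4 (44.4%) were higher. The matching share in other genes is not given here. At a difference of at least 20 points 100% of 7 member regions were higher, whereas 784 of 1732 such regions of other protein-coding genes were. The median difference was 11.8 percentage points in members and 12.2 in other genes. The lists hold only differences of at least 10 points, so these medians are largely set by that limit.

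In embryos obtained with stored sperm, 66 of 100 member regions were higher and 34 lower. The higher share was 66.0% (56.3 to 74.5) in members and 49.97% (49.3 to 50.7) in the 19520 regions of other protein-coding genes. Both intervals treat regions as independent, although regions of the same gene can lie as close as 3 bp (arhgap18). They are not a test between the sets. A higher region was found in 46 members (background 16.7%; 35.0 expected at like length) and a lower one in 23 (background 16.5%; 34.9 expected). The share was 68.8% without rgs3a, which had the most regions, and 67.2% when each gene counted once with its largest difference. Of the 58 genes 35 held higher regions alone, 12 lower regions alone and 11 both. Here 34 of the 58 genes held only 1 region and could not hold both. The matching shares of all protein-coding genes are not given here, so these counts are not read as a trait of the members. The other genes of these pathways, described below, had 65 higher regions of 134 in embryos.

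Most of these regions had a high mean level of methylation. The mean of both groups was at least 75% in 116 of 127 member regions of sperm (91.3%, against 81.0% in other genes) and in 87 of 100 of embryos (87.0% against 79.4%). Higher regions of sperm had a median level of 96.0% with storage and 83.8% fresh, and lower regions 84.0% and 96.7%. In embryos higher regions had medians of 96.5% with stored and 82.9% with fresh sperm, and lower regions 84.2% and 95.1%. The same medians in other protein-coding genes were 96.2% and 83.8% for higher and 79.7% and 93.3% for lower regions of sperm. For embryos they were 95.3% and 82.4%, and 82.8% and 95.5%. The median member region held 5 CpG sites in both lists. Below a mean level of 75% the sperm regions of members were higher in 9 of 11 cases, whereas 42.3% of such regions in other genes were. At 75% or more the order was the other way, with 72 of 116 higher against 69.1%. In embryos 8 of 13 were higher below 75% (52.5% in other genes) and 58 of 87 at 75% or more (49.3%). Some sperm regions, such as that of rab1bb, are both below 75% and among the differences of at least 20 points.

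**Figure D2:**
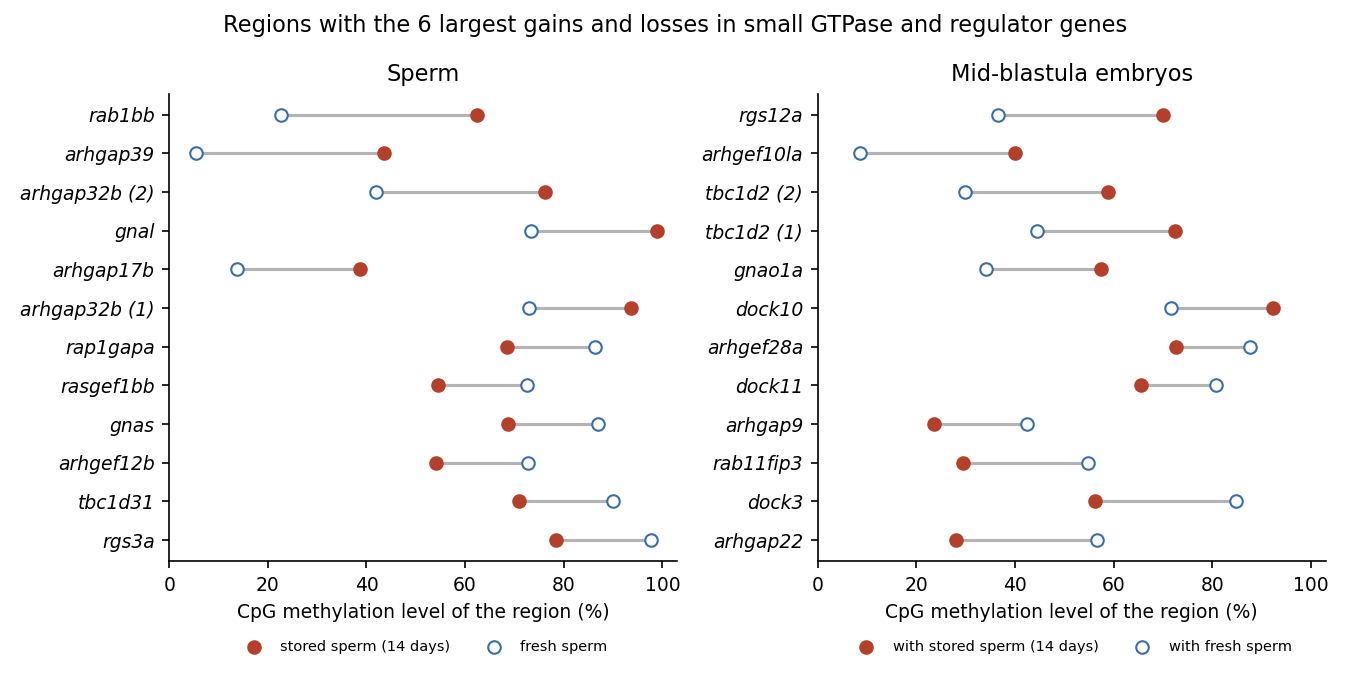
CpG methylation level (horizontal axis, %) of the member regions with the 6 largest gains and the 6 largest losses in sperm (left) and embryos (right), with stored sperm as filled and fresh sperm as open circles; each circle is the deposited level of a group of 3 libraries, without error, and numbers in brackets tell regions of the same gene apart in order of position. The widest gap is that of rab1bb in sperm (62.4% stored, 22.8% fresh), and losses in sperm stay under 20 percentage points.

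Rab GTPases give membranes their identity and direct vesicles between them, and their genes are short, with a median of 6.11 kb. Of 34 members of this group 6 held a region in sperm (6.45 expected at like length) and 6 in embryos (6.03 expected). The largest difference of all members was in rab1bb, whose product belongs to the Rab1 proteins of transport from the endoplasmic reticulum to the Golgi. A region of 5 CpGs on chromosome B10 (13054769 to 13054782), in the gene body 0.99 kb from a gene end, had 62.4% in stored and 22.8% in fresh sperm. In embryos another region of rab1bb, 1182 bp away (from 13055964), had 82.7% with stored and 69.5% with fresh sperm. Both rab1bb regions were higher, at different sites.

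The other Rab genes differed by less. In sperm the body of rab31 (97.6% stored, 86.9% fresh), the flank of rab11al (98.8% and 88.5%) and the bodies of rab5if (98.4% and 87.2%) and rab6ba (96.0% and 85.9%) were higher, and rab21, an endosomal Rab, was lower (78.6% and 88.6%). In embryos rab6ba, whose family acts at the Golgi, held 3 regions, 1 higher (97.4% with stored and 82.9% with fresh sperm) and 2 lower (86.8% and 98.8%; 78.9% and 88.9%). The 2 lower regions lay 172 bp apart. Of the related rab8a and rab8b, which act in traffic to the plasma membrane and cilium, the first was lower (85.6% and 98.1%) and the second higher (91.1% and 79.9%). The rab36 gene was higher (98.5% and 88.3%) and rab3b, a Rab of regulated secretion, was lower (87.6% and 97.6%). The regions of rab8b and rab36 also touch another coding gene or its flank.

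Rab effectors of the Rab11 family carry cargo out of recycling endosomes. The flank of rab11fip3 on B24 (21008379 to 21008464, 8 CpGs), 0.92 kb from the gene, had the third largest loss in embryos, with 29.5% with stored and 54.9% with fresh sperm. The genes rab11fip4a (99.3% with stored, 80.5% with fresh sperm) and rab11fip4b (98.2% and 78.7%) were both higher in embryos. In sperm rab11fip4a was listed in its flank (68.2% stored, 57.6% fresh) and rab11fip5a in its body (88.4% and 98.9%). Together with rab3il1, which is not of the Rab11 family and was in neither list, the group had 6 genes, of which 2 were listed in sperm (2.49 expected at like length) and 3 in embryos (2.39 expected).

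Many TBC-domain proteins are GAPs of Rab GTPases, and this group was set by symbol alone. Of 14 genes 4 were listed in sperm (4.91 expected at like length) and 7 in embryos (4.58 expected). Their regions were 4 higher and 6 lower in sperm and 9 higher and 2 lower in embryos. In sperm tbc1d22a alone held 6 of the 10, 2 higher and 4 lower, so that the other genes had 2 of each, and in embryos its 2 regions were higher. In embryos tbc1d2 on A14, which in mammals inactivates Rab7, held 3 higher regions and none in sperm. These had 58.9% with stored and 29.9% with fresh sperm (13633613 to 13633642, 12 CpGs), 72.4% and 44.4% (13625364 to 13625423, 9 CpGs), and 40.8% and 25.5% (13624871 to 13625154, 5 CpGs). All 3 lay in intermediate methylation, unlike most member regions.

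In tbc1d31, which encodes a centrosomal protein, the sperm region was lower and the embryo regions ran both ways. A region of 17 CpGs on B16 (15154828 to 15154880) had 70.9% in stored and 90.0% in fresh sperm, the second largest loss in sperm. In embryos a region 596 bp to one end of it was higher (97.4% with stored, 85.2% with fresh sperm) and another was lower (88.9% and 98.9%). In tbc1d32, a gene of ciliary function, regions 137 bp apart were lower in sperm (78.7% stored, 92.7% fresh) and higher in embryos (92.1% with stored, 75.1% with fresh sperm), and another sperm region of the gene was higher (94.6% and 80.7%). In tbc1d19 a region of 21 CpGs was higher in sperm (85.6% and 71.4%).

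The arhgap genes, which encode GAPs, held 3 of the 5 largest gains in sperm. The gene arhgap39 on B20 had 43.5% in stored and 5.36% in fresh sperm at 24399855 to 24399878 (5 CpGs), 11.2 kb from a gene end. In arhgap32b on A21, a GAP of Cdc42 and Rac that is abundant in mammalian neurons, the level was 76.3% in stored and 42.0% in fresh sperm at 12606609 to 12606630, and 93.5% and 73.0% at 12588231 to 12588280. A region of arhgap17b on A3 (31114456 to 31114497) had 38.6% and 13.8%. These regions spanned 22 to 50 bp with 5 CpGs each.

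Among the group as a whole, 10 of 18 arhgap genes held a region in sperm (9.13 expected at like length) and 12 in embryos (8.77 expected). The 21 regions in sperm were 14 higher and 7 lower, and the 17 in embryos 9 higher and 8 lower. A region of 8 CpGs in arhgap31, a GAP of Rac and Cdc42, was nearly free of methylation in fresh sperm, with 14.8% stored and 1.66% fresh. The remaining sperm regions of arhgap39 were 2 higher and 2 lower, and its embryo region, 4506 bp from the nearest sperm region, was higher, with 99.0% with stored and 79.5% with fresh sperm. The largest loss of all members in embryos was in arhgap22, a Rac GAP, on B13 (20706837 to 20706891, 5 CpGs), with 27.9% with stored and 56.7% with fresh sperm. In arhgap9, a gene of blood cells in mammals, a region of 11 CpGs had 23.5% and 42.5%, and another was 12.4 percentage points higher. The flank of arhgap18 held a pair of higher regions in embryos, 3 bp apart, with 83.3% and 67.4% in the one with the larger difference.

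Exchange factors of the Dbl type, named arhgef, load small GTPases with GTP. Of 11 genes 5 were listed in sperm (5.61 expected at like length), with 3 regions higher and 4 lower, and 4 in embryos (5.39 expected), with 5 higher and 2 lower. The largest loss of this group in sperm was in arhgef12b on A5 (33406048 to 33406170), an exchange factor downstream of G proteins, with 54.0% stored and 72.8% fresh. Another arhgef12b region was higher in sperm (97.8% and 84.7%), and one more in embryos (94.4% with stored, 84.0% with fresh sperm). In arhgef28a, listed in embryos alone, regions were lower at 10633042 (72.7% with stored, 87.7% with fresh sperm) and 10647536 (79.4% and 91.8%) and higher at 10647749 (91.5% and 81.5%).

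DOCK proteins are a separate family of exchange factors for Rac and Cdc42 that act in cell migration and neurite growth, and their genes are long, with a median of 105.4 kb. All 6 genes held a region in sperm (5.12 expected at like length) and 5 in embryos (5.00 expected). They carried 29 regions in sperm, 19 higher and 10 lower, and 15 in embryos, 11 higher and 4 lower. In sperm dock1 on B12, the partner of ELMO proteins in Rac activation, had 6 regions, all higher, between 92.2% and 98.3% in stored and between 76.9% and 86.3% in fresh sperm. They lay 138.9 to 212.0 kb from the gene end with the lower coordinate, while its embryo regions lay 2.26 and 54.0 kb from that end. The first of these was higher (99.5% with stored, 88.9% with fresh sperm) and the second lower (86.1% and 98.3%).

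Of the other DOCK genes, dock4 held 1 sperm region, which was higher (98.7% stored, 87.1% fresh), and the rest held both kinds. The 8 regions of dock3, a neuronal Rac exchange factor, were 4 higher and 4 lower, those of dock10 were 4 higher and 2 lower, those of dock4b 3 higher and 1 lower, and those of dock11 1 higher and 3 lower. Gaps between the 3 lower regions of dock11 were 173 and 541 bp. In embryos all 5 regions of dock10 were higher, the largest with 92.4% with stored and 71.6% with fresh sperm (4889735 to 4889902). This region lies 34 bp from a sperm region that was also higher (97.8% stored, 86.9% fresh). In dock3 a region on B22 (30944513 to 30944587, 6 CpGs) had 56.3% with stored and 84.9% with fresh sperm, the second largest loss in embryos, and the remaining 3 were higher.

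**Figure D3:**
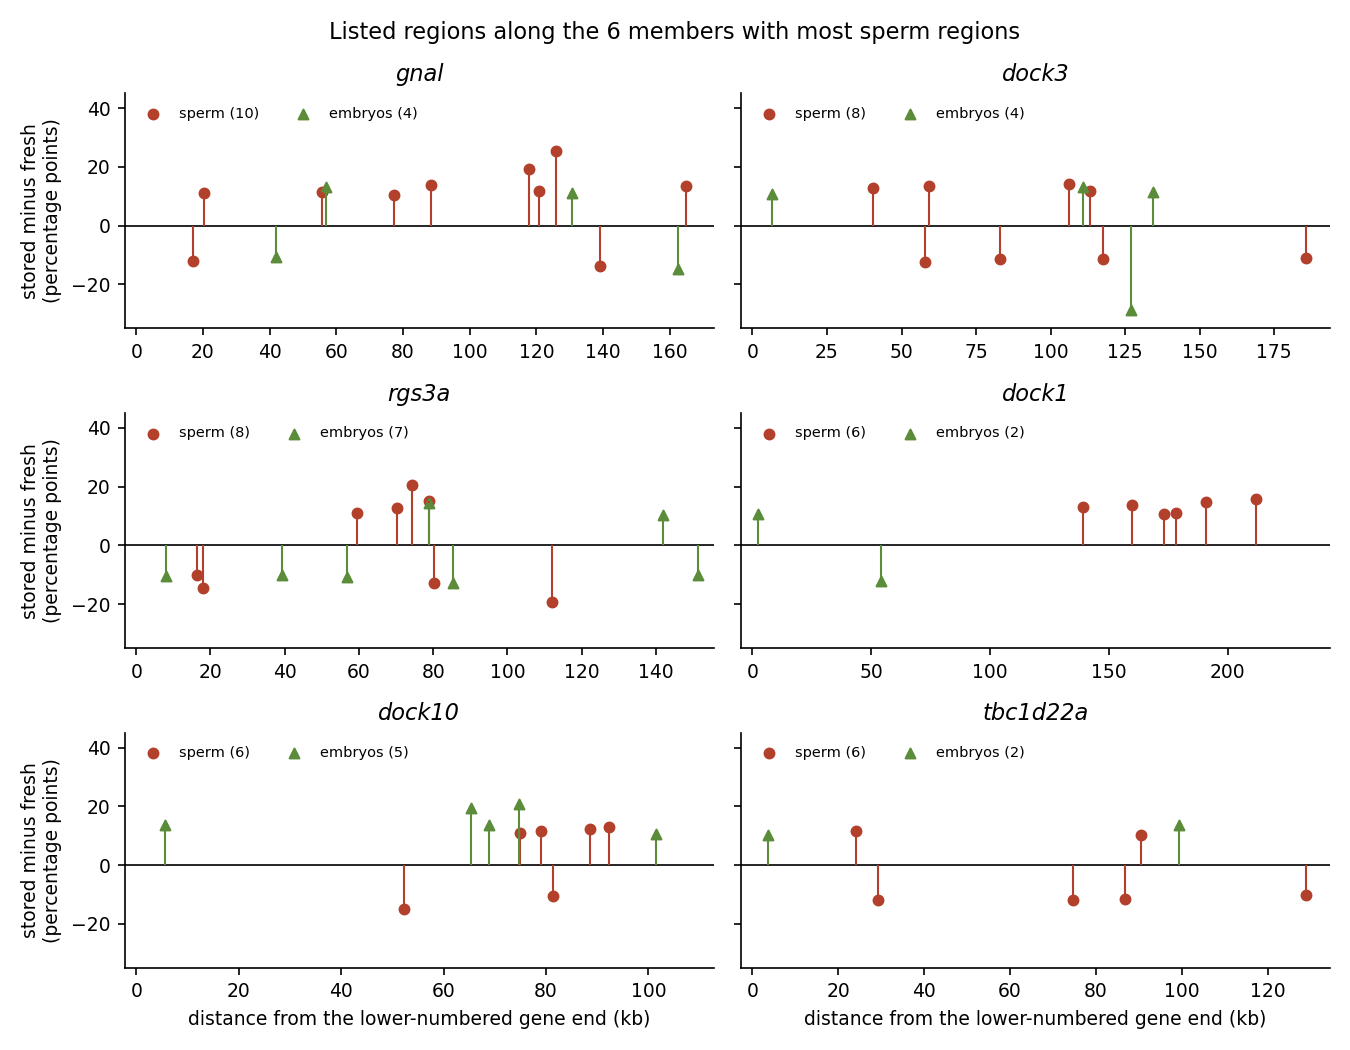
Difference of the methylation level, stored minus fresh (vertical axis, percentage points), along the 6 members with the most sperm regions, by distance from the gene end with the lower coordinate (horizontal axis, kb), with sperm as circles, embryos as triangles and counts in the keys. The 6 sperm regions of dock1 and the 5 embryo regions of dock10 are all above 0, while those of dock3, rgs3a and tbc1d22a fall on both sides.

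Ras and Rap proteins carry growth and adhesion signals. Exchange factors, GAPs and effectors of Ras had 6 regions in sperm and 4 in embryos, apart from a flank region of the small Ras-like gene rasd2 (97.0% stored, 86.0% fresh). Of 5 exchange factor genes 2 were listed in sperm (2.62 expected at like length) and 1 in embryos (2.48 expected). For the 3 GAP genes it was 1 in sperm (1.41 expected) and 1 in embryos (1.32 expected). For the 8 effector genes it was 1 (2.25 expected) and 0 (2.12 expected), and for the 3 Ras-like genes 1 (0.278 expected) and 0 (0.271 expected). The flank of rasgef1bb on B10 (6913795 to 6913994), at the edge of the 1 kb and shared with another coding gene, was lower in stored sperm (54.4% and 72.6%). The flank of the Ras GAP gene rasa2 on B18 (6590935 to 6591001) was higher (91.0% and 72.7%), as were 3 regions of rassf7b, a gene of the Ras association domain family (99.3% and 81.7% in the largest). The related exchange factor gene rasgef1ba was higher in sperm (97.7% and 84.7%) and lower in embryos (87.6% with stored, 97.7% with fresh sperm). In embryos rasa1a, another Ras GAP gene, held 3 higher regions, between 88.1% and 98.5% with stored and between 77.2% and 87.1% with fresh sperm. Those from 16449503 and 16449617 lay 71 bp apart.

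Of 7 genes of Rap GTPases and Rap regulators 3 were listed in sperm (2.53 expected at like length) and 1 in embryos (2.46 expected). The gene rap1b, which encodes an adhesion GTPase, held a pair of higher regions in sperm (98.2% and 98.5% stored, 85.5% and 85.0% fresh). The Rap GAP gene rap1gap2b was higher (90.2% and 75.5%). A related gene, rap1gapa on B23 held 4 in sperm. Of these 2 were higher (97.9% and 96.9% stored, 87.8% and 86.7% fresh) and 2 lower (82.2% and 68.5% stored, 98.8% and 86.4% fresh), the last with 15 CpGs at 14119280 to 14119408. In embryos both of its regions were higher (97.9% and 98.7% with stored, 87.8% and 88.1% with fresh sperm).

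Arf GTPases recruit vesicle coats, and of 6 genes arf4a was listed in sperm (0.874 genes expected at like length) and in embryos (0.818 expected). Its sperm regions were lower (83.4% and 88.1% stored, 93.8% and 98.3% fresh), with 22 CpGs in the first, and its embryo region was higher (96.8% with stored, 86.0% with fresh sperm). The Arf exchange factor gene iqsec2b was higher in both lists (95.2% stored and 83.4% fresh in sperm; 98.1% and 83.8% in embryos), at sites 11187 bp apart.

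Of 10 genes of G protein alpha subunits, with a median length of 35.6 kb, 6 held a region in sperm (5.39 expected at like length) and 7 in embryos (5.17 expected). The 21 regions in sperm were 15 higher and 6 lower, and the 13 in embryos 10 higher and 3 lower. The gene gnal, whose product stimulates adenylyl cyclase and serves olfaction in mammals, had 10 regions in sperm, the most of any member, 8 of them higher. The largest, on A24 (7971644 to 7971691), had 98.9% in stored and 73.4% in fresh sperm, and the next 92.4% and 73.2%. In embryos gnal was split, with 2 regions higher and 2 lower. The related gene gnas, which also encodes a stimulatory subunit, was lower at 28700282 to 28700524 on A6 (68.6% stored, 86.9% fresh) and higher at other sites in sperm (96.0% and 84.8%; 97.3% and 87.2%) and in embryos (97.9% and 86.7%; 97.6% and 83.9%).

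Among other alpha subunits, gnaq, which activates phospholipase C, was higher in embryos (96.6% with stored, 78.6% with fresh sperm) and split in sperm (99.3% stored and 87.6% fresh; 82.6% and 93.1%). The inhibitory subunit gene gnai2a was higher in sperm (89.4% and 74.2%). The embryo regions of gnaz, 1 higher (95.8% and 81.9%) and 1 lower (83.4% and 95.3%), also touch another coding gene or its flank.

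RGS proteins shorten G protein signals. In sperm 5 of 15 genes (4.83 expected at like length) held 12 regions, 7 higher and 5 lower, and in embryos 7 genes (4.59 expected) held 16, 8 higher and 8 lower. The largest gain of all members in embryos was in rgs12a on B7 (9342757 to 9342779, 5 CpGs), with 69.9% with stored and 36.6% with fresh sperm, beside a second higher region from 9343165 (94.9% and 79.7%). The gene rgs3a on B5 held 8 sperm and 7 embryo regions in both directions. In sperm its level was 91.9% stored and 71.4% fresh at 28354096 to 28354271, and 78.4% and 97.7% at 28391841 to 28391859, the largest loss in sperm. The flank of rgs2, a GAP selective for Gq, was higher in embryos (92.2% with stored, 73.7% with fresh sperm; 26899716 to 26899775 on B22), and of 3 regions of rgs19, 2 were lower (78.5% and 92.4%; 85.5% and 99.2%) and 1 higher (96.6% and 84.8%).

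**Figure D4:**
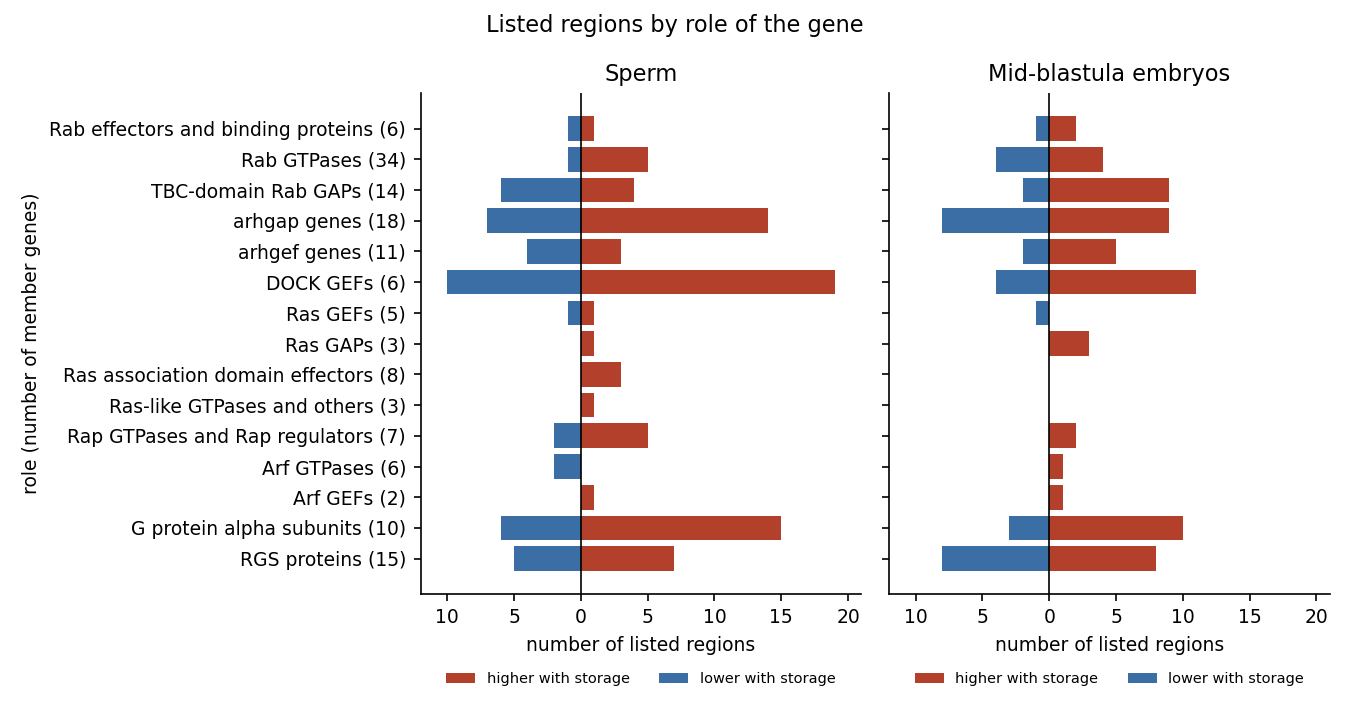
Number of listed regions in members (horizontal axis) by the role of the gene (number of genes in brackets), with regions higher with storage in red to the right of 0 and lower ones in blue to the left, for sperm (left) and embryos (right). DOCK genes hold the most regions in sperm (19 higher, 10 lower), and TBC-domain genes have 4 higher and 6 lower in sperm but 9 higher and 2 lower in embryos.

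Whether a member differed at the same place in sperm and embryos was read from overlapping regions. There were 5 such pairs in 5 genes, 3.94% of the sperm and 5.00% of the embryo regions of members, where 6.95% of sperm and 7.41% of embryo regions of all protein-coding genes overlapped. In arhgef10la on A11, an exchange factor gene, the level was 39.0% stored and 19.2% fresh in sperm (16425904 to 16426162, 9 CpGs) and 40.1% with stored and 8.64% with fresh sperm in embryos (16425945 to 16426162, 5 CpGs). In gnao1a on B18, whose product is the main G protein of the nervous system, it was 46.9% and 33.6% in sperm (15963832 to 15964038) and 57.4% and 34.0% in embryos (15963773 to 15964023). Both genes had the regions well inside the body, 18.0 kb and 11.1 kb from a gene end for the embryo region.

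In rgs3a the overlapping regions were higher too (98.9% stored and 83.7% fresh in sperm; 94.9% with stored and 80.5% with fresh sperm in embryos). The other pairs ran in opposite directions. In arhgap10 the level was 90.2% stored and 79.5% fresh in sperm and 79.9% with stored and 93.1% with fresh sperm in embryos, and in arf4a, where 4 bp overlap, it was lower in sperm and higher in embryos as given above. Over all protein-coding genes, 716 of 1509 overlapping pairs had the same direction (47.4%), beside 3 of 5 in members. In the 34 members with regions in both lists, the nearest sperm and embryo regions were a median of 2223 bp apart.

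**Figure D5:**
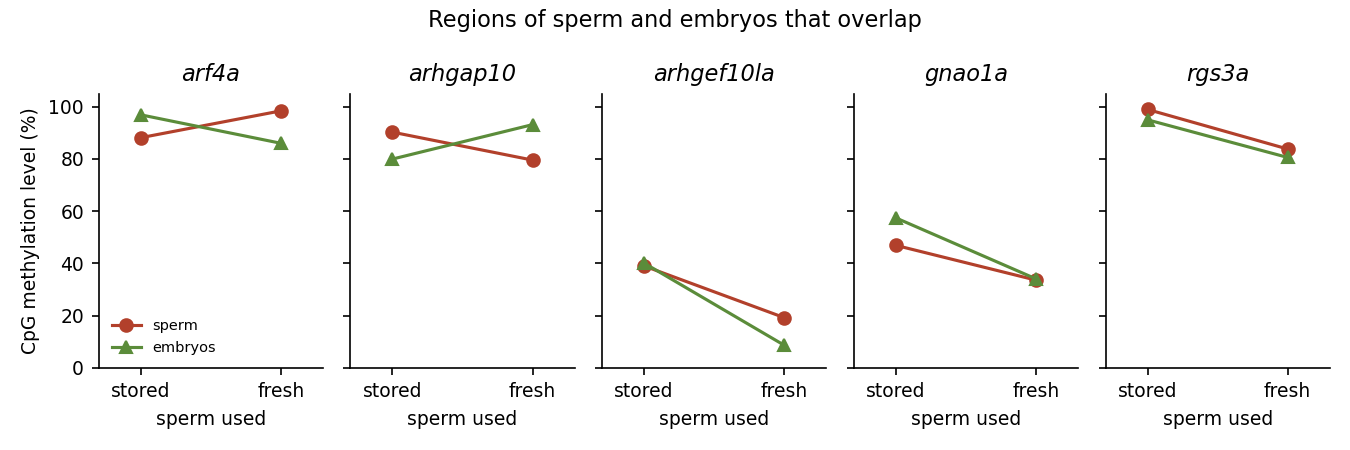
CpG methylation level (vertical axis, %) with stored and with fresh sperm in the 5 pairs of overlapping sperm (circles) and embryo (triangles) regions of members, each point the deposited level of a group without error. The sperm and embryo lines slope the same way in arhgef10la, gnao1a and rgs3a and opposite ways in arf4a and arhgap10.

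The wider pathway was read from 153 other genes matched by symbol, such as Rac, Cdc42, Arl, further GAPs and GEFs, G protein beta and gamma subunits and adenylyl cyclases. Of these 60 held a region in sperm (61.3 expected at like length) and 60 in embryos (58.4 expected). The symbol pattern also took in chmp, gemin and triobp genes, which do other work. Without those 15 genes 59 of 138 held a region in each list (59.0 expected at like length in sperm and 56.3 in embryos). These 138 genes had 138 regions in sperm, 92 of them higher, where 64.0% of the regions of protein-coding genes outside the members were. The largest differences in sperm were gains in rabgap1l (81.4% stored, 50.5% fresh) and ralgapa2 (57.0% and 32.0%), a GAP subunit for Ral, and losses in syngap1b, a synaptic Ras GAP gene (47.4% and 81.7%; 32.4% and 62.4%). In embryos they were gains in rabac1 (64.3% with stored, 19.3% with fresh sperm) and rin2a (89.9% and 60.4%), and losses in plekhg6 (21.8% and 44.6%) and adcy5, an adenylyl cyclase gene (74.5% and 97.3%).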

How the data were processed

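Whole-genome bisulphite reads of 12 libraries (4 groups of 3) were, per the study's methods, aligned with BSMAP, whose version is not given in the sources used here, and cleared of duplicates, and regions were called by Fisher's exact test on windows. The authors deposited 2 lists, each with a methylation level per group and region as a fraction, a difference (a score, fresh minus stored), the number of CpG sites (a count) and a p-value. Levels were multiplied to percent, and the difference was recomputed as stored minus fresh. The authors' p-values and differences were used only to check filter and sign: every region had at least 5 CpGs, a difference of at least 10 points and p below 0.05, while 3.94% of sperm and 4.20% of embryo regions differed at least 2-fold, the size the methods name. Each level stands for a group, and how its 3 libraries were combined is not stated. Depth is unknown too, so no interval is given for a level, and no test was run.

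Genes came from the RefSeq table of ASM1834038v1, which gives neither strand nor exons, so regions are described as body or flank. Chromosome names were matched by order over 50 chromosomes, and the lists do not state whether positions count from 0 or 1. Gene length was standardised with 20 length classes of genes outside the list. Wilson 95% intervals cover counting error only. The text names the largest gains and losses overall and in each role, members with at least 6 regions, flank regions of at least 15 points and overlapping pairs. Other members were named after their values were seen, to complete a role. One role group among the members enters the counts over all members but is not reported here on its own. The members, lists and choices were made with earlier results of these data known. Alternatives were a stricter difference, CpG number or fold, other flanks, midpoints, length classes and overlaps. No genome sequence was used here, so no sequences or promoter motifs are given. Calculations used python 3.11.15, pandas 2.3.3, numpy 2.4.6, scipy 1.17.1 and matplotlib 3.10.9, and gene assignment was tested on simulated data.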

Additional observations from a re-analysis of the deposited data

How the results depend on the processing

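No paired analysis was possible because the lists give 1 level per group, and for the same reason leaving out each library could not be run. At a difference of at least 20 percentage points, 6 members held a sperm region (7.81 expected at like length) and 9 an embryo region (7.97 expected). At that size 100% of the 7 sperm regions of members were higher, against 784 of 1732 in other protein-coding genes. In embryos 7 of the 10 such regions of members were higher, against 911 of 1772 in other protein-coding genes. With at least 10 CpG sites, 9 members held a region in sperm (9.90 expected) and 9 in embryos (10.2 expected). The majority in sperm turned round, with 4 of 9 regions higher (44.4%), while 6 of 9 were higher in embryos. At a 2-fold difference, 5 members remained in sperm (3.24 expected), with 5 of 5 regions higher. In embryos 2 members remained (3.01 expected), with 1 of 2 regions higher. The higher shares of other genes at these CpG and fold limits are not given here. The overlapping pairs numbered 3 when at least 50% had to be shared and 0 when both differences had to reach 20 points. These sets are small by construction. Gene body only, a 5 kb flank and region midpoints left the counts within 1.5 times and the higher shares on the same side. With the gene body only, 48 members held a region in sperm (54.2 expected at like length) and 55 in embryos (51.3 expected). With a 5 kb flank it was 74 in sperm (73.5 expected) and 75 in embryos (70.0 expected). By midpoints it was 55 (57.2 expected) and 58 (54.3 expected). Of the alternatives chosen after seeing the data, 1 region per member, leaving out the member with the most regions and leaving out regions that touch another coding gene kept the higher shares on the same side. Setting the expectation from named genes only gave 57.0 members in sperm and 52.8 in embryos. Without chmp, gemin and triobp symbols, 42.8% of the other pathway genes held a region in each list, against 39.2% with them. At like length 42.8% were expected in sperm and 40.8% in embryos without those symbols, and 40.0% and 38.2% with them.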
